A study of Mus musculus with 7 samples.

Results

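Urea cycle and amino acid catabolism genes were examined in mouse hepatocytes, the liver cells that break down most amino acids and turn the released ammonia into urea. The set was a list of 42 gene symbols of these pathways, drawn up with earlier results of these data known. All 42 were found among the 12151 symbols of the deposited expression table. Messenger RNA was profiled by RNA sequencing in 4 ALAS1/2-KO libraries and 3 wild-type (WT) libraries of isolated hepatocytes. In ALAS1/2-KO mice, a conditional allele allowed Cre to delete exons 4 and 5 of Alas1, and injected small interfering RNAs joined to GalNAc, a sugar that hepatocytes take up, targeted Alas2. The ALAS1/2-KO libraries carry the treatment label tamoxifen and the WT libraries carry the label non, so Alas1 deletion, Alas2 depletion and tamoxifen cannot be told apart here. The labels give no strain, sex, age or Cre promoter. They do not say whether each replicate was a different mouse, so the p-values rest on a spread between libraries that could be technical. ALAS1 and ALAS2 are the enzymes of the entry step of heme synthesis, and the series addresses a role of ALAS1 in silencing by small RNAs that does not depend on heme.

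Amino acid breakdown starts with removal of the amino group, which transaminases pass to glutamate and glutamate dehydrogenase releases as ammonia. In the urea cycle, carbamoyl phosphate synthetase fixes ammonia in the mitochondrion, ornithine carries it as citrulline to the cytosol, and arginase releases urea and returns ornithine. The remaining carbon skeletons are taken apart by separate pathways for tyrosine, histidine, methionine, proline, lysine, tryptophan and the branched-chain amino acids. Periportal hepatocytes hold most urea cycle enzymes, whereas pericentral hepatocytes capture residual ammonia as glutamine.

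Levels below are counts scaled to library size (CPM) taken off the deposited log2 scale, and a fold change is a difference in log2 CPM, ALAS1/2-KO minus WT, tested with limma and adjusted by the Benjamini-Hochberg method over 12105 genes. A gene was said to have risen or fallen where the adjusted p was under 0.05. Recovered reads ran from 27933939 to 30195635 in ALAS1/2-KO libraries and from 22916097 to 34048680 in WT libraries, and the scarcest of the 42 genes, Sdsl, had at least 3.81 CPM in each library. Alas2 was at 0.20 to 0.80 CPM in ALAS1/2-KO libraries and at 6.65 to 16.9 CPM in WT libraries, whereas Alas1 had 287 to 361 CPM in ALAS1/2-KO libraries and 83.5 to 279.5 CPM in WT libraries, a whole-gene value that does not check a deletion of exons 4 and 5. Alas2 is also a gene of red cell precursors, and 4 red cell markers moved with it: they summed to 2.75 to 7.39 CPM in ALAS1/2-KO libraries and 11.3 to 41.3 CPM in WT libraries, with a median fold change of -2.28, no overlap between groups in any of the 4 and 1 past the threshold by limma. Their part in the Alas2 difference was not tested. Mitochondrially encoded genes took 23.8 ± 4.72% (SD, n = 4) of reads in ALAS1/2-KO libraries and 37.9 ± 5.68% (SD, n = 3) in WT libraries. The summed level of 9 hepatocyte markers was 83003 to 90422 CPM in ALAS1/2-KO libraries and 123984 to 130306 CPM in WT libraries, most of it from the albumin gene Alb, at 49929 to 55979 CPM in ALAS1/2-KO and 93955 to 100209 CPM in WT. Alb was the 1 marker past the threshold by limma, lower in ALAS1/2-KO, whereas 7 of the 9 had positive fold changes and the median of the list was 0.18. ALAS1/2-KO replicate 1 stood apart in markers of other liver cells: its 12 Kupffer cell markers summed to 268 CPM, its 12 endothelial markers to 91.8 CPM and its 12 stellate cell markers to 66.5 CPM. The other ALAS1/2-KO libraries had Kupffer sums of 806 to 1709 CPM, endothelial sums of 214 to 416 CPM and stellate sums of 140.1 to 338 CPM, and the WT libraries had Kupffer sums of 1083 to 1468 CPM, endothelial sums of 384 to 474 CPM and stellate sums of 297 to 550.01 CPM. Each of the 12 genes in all 3 lists had a negative fold change; 0 passed the threshold by limma and 1 endothelial gene by limma voom, with 0 Kupffer, 3 endothelial and 11 stellate genes at an unadjusted p under 0.05. The 5 lymphocyte and 2 cholangiocyte markers tested were also all negative, with 1 of each list past the threshold by limma. The lymphocyte sums were 6.35 to 31.3 CPM in ALAS1/2-KO and 24.3 to 38.5 CPM in WT, and the cholangiocyte sums 2.72 to 5.35 CPM in ALAS1/2-KO and 12.1 to 21.1 CPM in WT.

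For 3 genes that the results turn on, the sequence upstream of the annotated start is shown, since Cbs fell, Oat had the most negative fold change of the set and Ftcd the smallest p among genes with a positive one. The letters come from RefSeq (GRCm38.p6, the mm10 assembly), which held a promoter for 31 of the 42 genes, and run 5′ to 3′ on the strand of the gene up to the base before its start. For Cbs, 33 bases next to the RefSeq start that lie inside the GENCODE gene model were left out of the 250 bases. The lines are Cbs at chr17:31637239-31637455 (minus strand), Oat at chr7:132576399-132576648 (minus strand) and Ftcd at chr10:76575398-76575647 (plus strand), and capitals mark matches to 4 motifs searched on both strands.
Cbs: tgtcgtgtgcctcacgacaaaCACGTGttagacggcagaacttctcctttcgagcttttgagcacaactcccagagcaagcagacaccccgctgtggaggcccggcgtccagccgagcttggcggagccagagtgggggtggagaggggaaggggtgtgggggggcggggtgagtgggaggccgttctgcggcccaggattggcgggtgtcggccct
Oat: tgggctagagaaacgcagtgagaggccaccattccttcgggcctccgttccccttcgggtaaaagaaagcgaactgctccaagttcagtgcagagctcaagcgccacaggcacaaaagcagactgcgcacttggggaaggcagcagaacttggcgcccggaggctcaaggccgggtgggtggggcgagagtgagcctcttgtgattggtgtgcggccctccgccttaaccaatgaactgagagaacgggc
Ftcd: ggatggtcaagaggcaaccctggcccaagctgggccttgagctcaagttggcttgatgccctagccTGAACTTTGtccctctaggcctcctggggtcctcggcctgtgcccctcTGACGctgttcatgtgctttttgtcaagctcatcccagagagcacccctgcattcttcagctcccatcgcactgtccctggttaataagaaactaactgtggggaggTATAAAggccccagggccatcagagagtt
The motifs were the HNF4 core CAAAGTNCA, the cAMP response half-site TGACG, the E-box CACGTG and the TATA box TATAAA. Cbs held an E-box at bases -229 to -224 from the RefSeq start, and Oat held none of the 4 motifs. Ftcd held an HNF4 core on the minus strand at -184 to -176, a half-site at -136 to -132 and a TATA box at -29 to -24. None of these matches overlapped another. In windows of 250 bases, the HNF4 core was in 1 of 31 promoters of the set (3.23%) and in 1.19% of all 32851, the half-site in 12.9% of the set and 17.8% of all, the E-box in 9.68% of the set and 6.02% of all, and the TATA box in 12.9% of the set and 12.4% of all. These matches describe letters only.

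Across the 42 genes, 0 rose and 1 fell, Cbs, by limma. Of all 12105 genes tested, 2.91% rose and 2.19% fell, so 1 lower call among 42 (2.38%) was close to the share in the whole table. Limma voom on the recovered reads likewise called 0 genes of the set higher and 1 lower. At an unadjusted p under 0.05 there were 11 genes of the set (26.2%), 8 with higher and 3 with lower levels in ALAS1/2-KO, against 23.7% of all genes. The 4 ALAS1/2-KO values lay entirely above or below the 3 WT values for 9 genes of the set (21.4%), against 22.7% of all genes. The median fold change was 0.17 on the log2 scale in the set and -0.02 over all genes. The set had 29 positive and 13 negative values, against 5805 positive and 6300 negative over all genes. With 1 library left out, the median of the set ran from 0.01, without WT replicate 3, to 0.29, without WT replicate 1. Because the cells were sequenced in bulk, fewer cells of a type and less RNA per cell cannot be told apart.

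**Figure D1:**
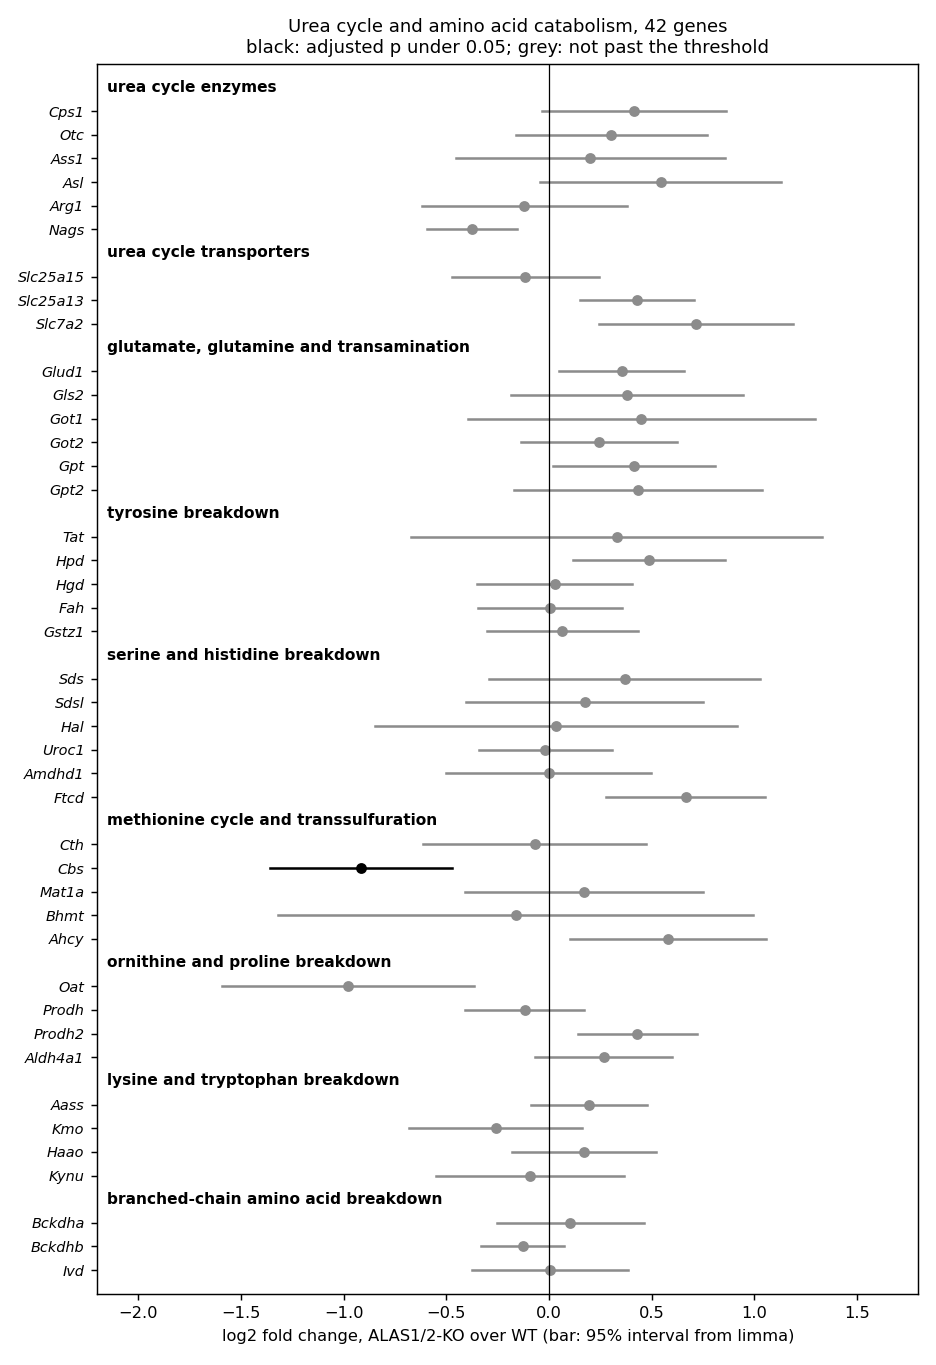
Log2 fold changes of the 42 genes, ALAS1/2-KO (n = 4) over WT (n = 3), grouped by role, with dots for limma's estimates and bars for its 95% confidence intervals. Cbs, in black, is the gene with an adjusted p under 0.05, at -0.91, and the other 41 genes are grey.

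These counts depended on how the libraries were scaled. The deposited values had been scaled with library sizes of 1.07 to 1.18 times the listed reads in ALAS1/2-KO and 0.801 to 1.003 times in WT. With CPM rescaled to the listed reads, 15 genes of the set were higher and 0 lower, against 20.9% of all genes higher and 1.67% lower. This scaling moved the median fold change of all genes to 0.32, and the median of the set stood 0.19 above the median of all genes under either scaling. The 15 genes were Aass, Ahcy, Aldh4a1, Asl, Cps1, Ftcd, Glud1, Got2, Gpt, Gpt2, Hpd, Otc, Prodh2, Slc25a13 and Slc7a2. The fold change of Cbs was -0.58 with an adjusted p of 0.0653 by limma under that scaling.

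The 6 urea cycle enzymes ranged from the abundant Cps1 and Ass1 to the scarce Nags, and none of the 6 passed the test by limma or limma voom, while Nags alone had an unadjusted p under 0.05. Cps1 (chromosome 1, mm10, 67123026 to 67231259), carbamoyl phosphate synthetase, had 2033, 1365, 1185 and 1562 CPM in ALAS1/2-KO libraries and 1369, 1042 and 1009 CPM in WT libraries. ALAS1/2-KO replicate 1 was the highest and the groups overlapped, since WT replicate 1 exceeded 2 of the ALAS1/2-KO libraries. The fold change of Cps1 was 0.42 ± 0.20 (SE), with an interval of -0.03 to 0.86 and an adjusted p of 0.24 by limma. Otc, ornithine transcarbamylase, had 232, 259, 167 and 151 CPM in ALAS1/2-KO and 174, 173 and 135 CPM in WT. The higher values belonged to ALAS1/2-KO replicates 1 and 2, and the other 2 ALAS1/2-KO libraries lay within the WT range. Its fold change was 0.30 ± 0.20 (SE, adjusted p = 0.403 by limma).

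Ass1, argininosuccinate synthase, had 1157, 1468, 957 and 840.5 CPM in ALAS1/2-KO and 1464, 799 and 709 CPM in WT. A single WT library, replicate 1, matched the highest ALAS1/2-KO library, and the fold change was 0.20 ± 0.28 (SE, adjusted p = 0.702 by limma). Asl, argininosuccinate lyase, was even across the ALAS1/2-KO libraries, at 444, 395, 405 and 445 CPM, and uneven in WT, at 470.4, 253 and 204 CPM. Its fold change was 0.54, with an interval of -0.04 to 1.13 and an adjusted p of 0.241 by limma. Without WT replicate 1, its highest WT library, the fold change was 0.90 with an adjusted p of 0.0253. That was the 1 fit of the 7 leaving out 1 library in which Asl passed, and the adjusted p ran up to 0.525. Arg1, the arginase of the liver, had 588, 406, 414 and 479 CPM in ALAS1/2-KO and 677, 522 and 368 CPM in WT. The groups overlapped over most of their range, and the fold change was -0.12 (interval -0.62 to 0.38), or 0.22 with CPM rescaled to listed reads. The 6 enzymes together summed to 4472, 3916, 3148 and 3496 CPM in ALAS1/2-KO and to 4180, 2815 and 2450 CPM in WT.

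Nags, which makes the N-acetylglutamate that Cps1 needs to be active, was the scarce enzyme of the cycle. It had 19.5, 22.7, 20.1 and 18.5 CPM in ALAS1/2-KO and 25.8, 26.2 and 26.5 CPM in WT. All ALAS1/2-KO libraries were below all WT libraries, and the WT values lay within 1 CPM of each other. The fold change was -0.38 ± 0.10 (SE), with an adjusted p of 0.0644 by limma, so Nags did not pass the threshold. Leaving out 1 library at a time gave adjusted p-values of 0.0506 to 0.211 for it, none past the threshold. With CPM rescaled to listed reads the fold change of Nags was -0.041 (adjusted p = 0.84 by limma). The adjusted p was 0.0485 with quantile normalization and 0.0145 with array weights. Without ALAS1/2-KO replicates 1 and 2 together, an alternative chosen after the data were seen, the adjusted p was 0.043. An unlisted gene, Gm11586, overlaps 15.6% of the Nags exons on the other strand, and no source used here states how strand was handled.

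The transporters of the cycle differed among themselves. Slc7a2, a carrier of arginine and other cationic amino acids, had 338, 312, 265 and 283 CPM in ALAS1/2-KO and 262, 163 and 140.2 CPM in WT. The groups did not overlap, by a margin of a few CPM at WT replicate 1. The fold change was 0.72 ± 0.21 (SE, adjusted p = 0.0897 by limma), and without WT replicate 1, its highest WT library, the adjusted p was 0.0244. That was the 1 fit of the 7 leaving out 1 library in which Slc7a2 passed, and the adjusted p ran up to 0.294. Slc25a13, which carries aspartate out of the mitochondrion for argininosuccinate synthesis, had 89.8, 79.6, 79.9 and 75.2 CPM in ALAS1/2-KO and 69.8, 60.2 and 51.7 CPM in WT. These groups also stood apart, with a fold change of 0.43 ± 0.12 (SE, adjusted p = 0.0862 by limma). Slc25a15, the mitochondrial ornithine carrier, had 122 to 162 CPM in ALAS1/2-KO and 130.4 to 175 CPM in WT, a fold change of -0.11, or 0.22 with CPM rescaled to listed reads.

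**Figure D2:**
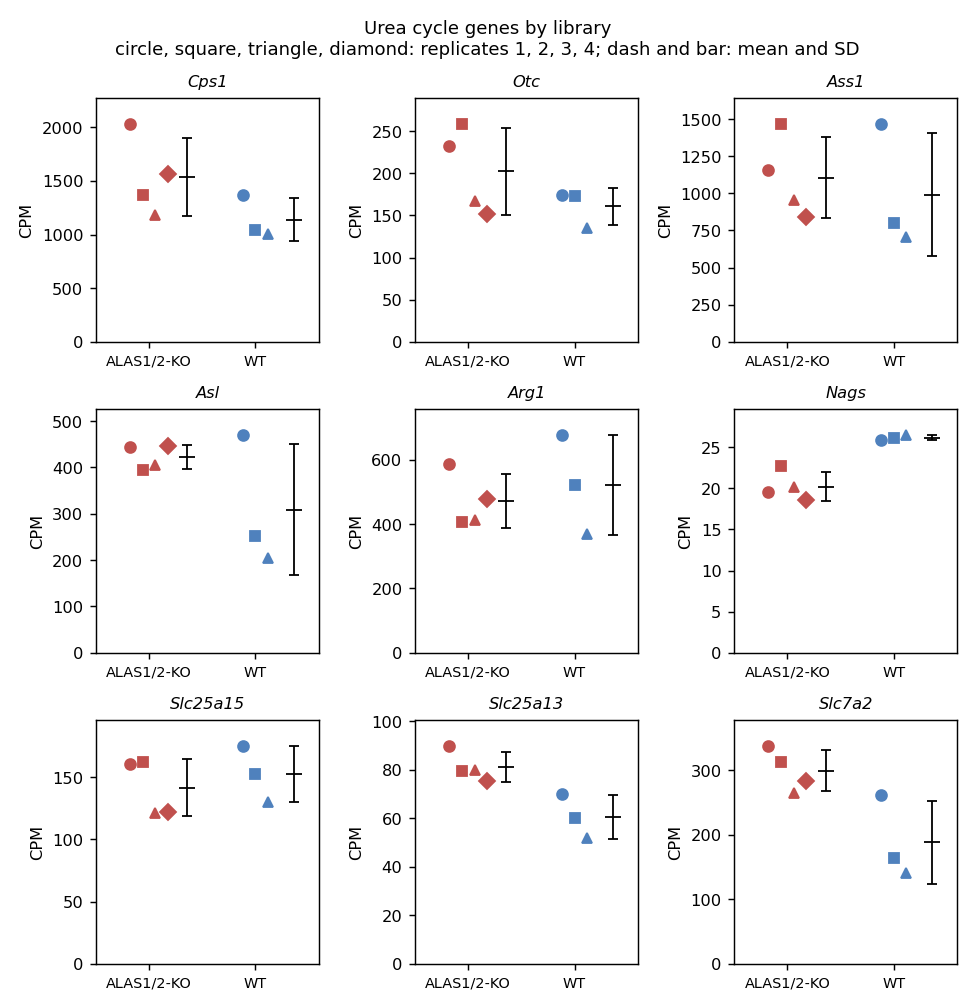
CPM of 6 urea cycle enzymes and 3 transporters in each ALAS1/2-KO library (left, n = 4) and each WT library (right, n = 3), with marker shapes for replicate numbers and a dash and bar for the mean and SD. Nags, Slc25a13 and Slc7a2 have groups that do not overlap, whereas Asl spreads from 204 to 470.4 CPM within WT.

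Glutamate and transamination genes all had positive fold changes, 0.25 to 0.45, and none of the 6 passed the test by limma or limma voom; 2 had an unadjusted p under 0.05. Glud1, glutamate dehydrogenase, had 664, 601, 579 and 496 CPM in ALAS1/2-KO and 484, 491 and 396 CPM in WT. The lowest ALAS1/2-KO library was just above the highest WT library, and the fold change was 0.35 ± 0.13 (SE, adjusted p = 0.162 by limma). Gpt, the cytosolic alanine transaminase, had 191, 203, 191 and 176 CPM in ALAS1/2-KO and 193, 134 and 113 CPM in WT, with a fold change of 0.42 and an adjusted p of 0.192. Gpt2, its mitochondrial partner, had 189.6 to 267 CPM in ALAS1/2-KO and 107 to 237 CPM in WT. The aspartate transaminases Got1 and Got2 and the liver glutaminase Gls2 had overlapping groups, and Got1 in WT ran from 61.8 CPM in replicate 3 to 189.8 CPM in replicate 1.

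In tyrosine breakdown, the entry enzyme Tat and the next enzyme Hpd contrasted in their spread. Tat, tyrosine aminotransferase, had 876, 736, 651 and 935 CPM in ALAS1/2-KO and 1129, 767 and 289 CPM in WT. The WT libraries spanned both ends of the range, and the fold change of 0.33 had an interval of -0.67 to 1.33 by limma. Without WT replicate 3 the fold change of Tat was -0.23. Hpd, which oxidises the product of Tat, had 889, 909.9, 722 and 671 CPM in ALAS1/2-KO and 668, 572 and 469 CPM in WT. The groups were separated by a few CPM, with a fold change of 0.49 ± 0.16 (SE) and an adjusted p of 0.124. The later enzymes Hgd, Gstz1 and Fah had fold changes of 0.03, 0.07 and 0.01, with limma's intervals within -0.35 to 0.43; all were negative without WT replicate 3 and with quantile normalization, and those of Hgd and Fah also under the scaling that left out the 20 most abundant and the mitochondrial genes. None of the 5 genes passed by limma or limma voom, and 1, Hpd, had an unadjusted p under 0.05.

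In histidine breakdown the groups stood apart for the last enzyme and overlapped for the earlier ones. Ftcd, the folate-dependent enzyme that ends the pathway (ENSMUSG00000001155.13, chromosome 10, 76575648 to 76590338), had 514, 689, 466 and 416 CPM in ALAS1/2-KO and 345, 321 and 304 CPM in WT. All ALAS1/2-KO libraries were above all WT libraries. The fold change was 0.67 ± 0.17 (SE), with an interval of 0.28 to 1.05 and an adjusted p of 0.0623 by limma, so it did not pass. Its adjusted p ran from 0.0644 to 0.211 with 1 library left out, and was 0.00773 with CPM rescaled to listed reads and 0.0235 with limma array weights. Hal, histidine ammonia-lyase, had 222, 413, 171 and 125 CPM in ALAS1/2-KO and 243, 177 and 202 CPM in WT. The ALAS1/2-KO libraries ran both above and below the WT range, and the fold change was 0.03 with an interval of -0.85 to 0.92, or -0.29 without ALAS1/2-KO replicate 2 and -0.07 with quantile normalization.

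Uroc1 and Amdhd1, the middle enzymes of histidine breakdown, had 451 to 608 and 90.1 to 181 CPM in ALAS1/2-KO, against 455 to 596 and 112 to 127 CPM in WT, with fold changes of -0.02 for Uroc1 and near 0 for Amdhd1, or 0.32 and 0.33 with CPM rescaled to listed reads. Sds, serine dehydratase, had 199 to 289 CPM in ALAS1/2-KO and 118 to 282 CPM in WT, a fold change of 0.37 (adjusted p = 0.47 by limma). Plbd2 overlaps 21.3% of the Sds exons on the other strand and averaged 62.0 CPM in ALAS1/2-KO and 44.4 CPM in WT. Sdsl, its related enzyme, was the lowest gene of the set, at 4.41 to 6.30 CPM in ALAS1/2-KO and 3.81 to 7.57 CPM in WT. None of the 6 serine and histidine genes passed by limma or limma voom, and 1, Ftcd, had an unadjusted p under 0.05.

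Cbs fell in ALAS1/2-KO hepatocytes. Cbs, cystathionine beta-synthase, joins homocysteine with serine at the entry of transsulfuration, the route from methionine to cysteine, and its enzyme carries a heme group. The gene (ENSMUSG00000024039.15) lies on chromosome 17, 31608894 to 31637238, minus strand in mm10. It had 262, 291, 195 and 169.9 CPM in ALAS1/2-KO and 474, 418 and 379 CPM in WT. The highest ALAS1/2-KO library was below the lowest WT library. Cbs averaged 229 ± 56.5 CPM in ALAS1/2-KO (SD, n = 4) and 424 ± 47.7 CPM in WT (SD, n = 3), 1.88-fold lower in ALAS1/2-KO on the log2 CPM scale. The fold change was -0.91 ± 0.19 (SE), with an interval of -1.36 to -0.47 and an adjusted p of 0.0358 by limma.

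The call for Cbs held in 2 of 7 fits that left out 1 library, those without ALAS1/2-KO replicate 1 (adjusted p = 0.0249 by limma) and replicate 2 (0.0349). It was lost without ALAS1/2-KO replicate 3 (0.0718) or 4 (0.0708) and without WT replicate 1 (0.121), 2 (0.153) or 3 (0.0703), with fold changes of -1.04 to -0.78 over the 7 fits. Without ALAS1/2-KO replicates 1 and 2 together, an alternative chosen after the data were seen, the fold change was -1.21 with an adjusted p of 0.00107. Those 2 libraries held the highest Cbs levels of the ALAS1/2-KO group, so leaving out either or both had to lower the fold change. With a score of non-parenchymal markers as a covariate it was -1.13 with an adjusted p of 0.0101, and limma without an intensity trend gave 0.0631. The score was -1.90 in ALAS1/2-KO replicate 1 and -0.34 to 0.82 in the other libraries, so this covariate largely sets that library apart.

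Cbs was also lower relative to its neighbours in the pathway, in ratios chosen after the values were seen and given as a description. Cth, cystathionine gamma-lyase, which cleaves the product of Cbs to cysteine, had 85.4, 104, 61.1 and 50.9 CPM in ALAS1/2-KO and 84.7, 75.8 and 68.3 CPM in WT. Cbs was 3.06, 2.81, 3.19 and 3.34 times Cth in ALAS1/2-KO libraries and 5.60, 5.51 and 5.56 times Cth in WT libraries. These ratios varied less within each group than the level of either gene. Cbs made up 1.51, 1.74, 1.61 and 1.35% of the summed CPM of the 42 genes in ALAS1/2-KO and 3.01, 3.27 and 3.64% in WT. Such ratios and shares do not depend on the scaling of the libraries.

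The enzymes of the methionine cycle had groups that overlapped or libraries that split. Ahcy, which releases homocysteine from S-adenosylhomocysteine, had 606, 557, 484 and 476 CPM in ALAS1/2-KO and 508, 319 and 272 CPM in WT. WT replicate 1 lay among the ALAS1/2-KO libraries, and the fold change was 0.58 ± 0.21 (SE, adjusted p = 0.148 by limma, and 0.0396 without WT replicate 1). That was the 1 fit of the 7 leaving out 1 library in which Ahcy passed, and the adjusted p ran up to 0.385. Mat1a, which makes S-adenosylmethionine in the liver, had 625 to 1088 CPM in ALAS1/2-KO and 523 to 1011 CPM in WT, a fold change of 0.17 with an interval of -0.41 to 0.75. Bhmt, which returns homocysteine to methionine with betaine, had 2549, 2633, 824 and 762 CPM in ALAS1/2-KO and 1515, 1821 and 1494 CPM in WT. ALAS1/2-KO replicates 1 and 2 were above every WT library and replicates 3 and 4 below every WT library. The 2 higher libraries averaged 3.27 times the 2 lower ones, so the mean fold change of -0.16 had an interval of -1.32 to 0.99 by limma. It was 0.17 with CPM rescaled to listed reads and 0.14 without ALAS1/2-KO replicate 4. Without ALAS1/2-KO replicates 1 and 2 together, chosen after the data were seen, it was -1.02 with an adjusted p of 0.00327 by limma. That fit leaves out the 2 libraries above WT, so its direction for Bhmt was fixed by the choice.

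**Figure D3:**
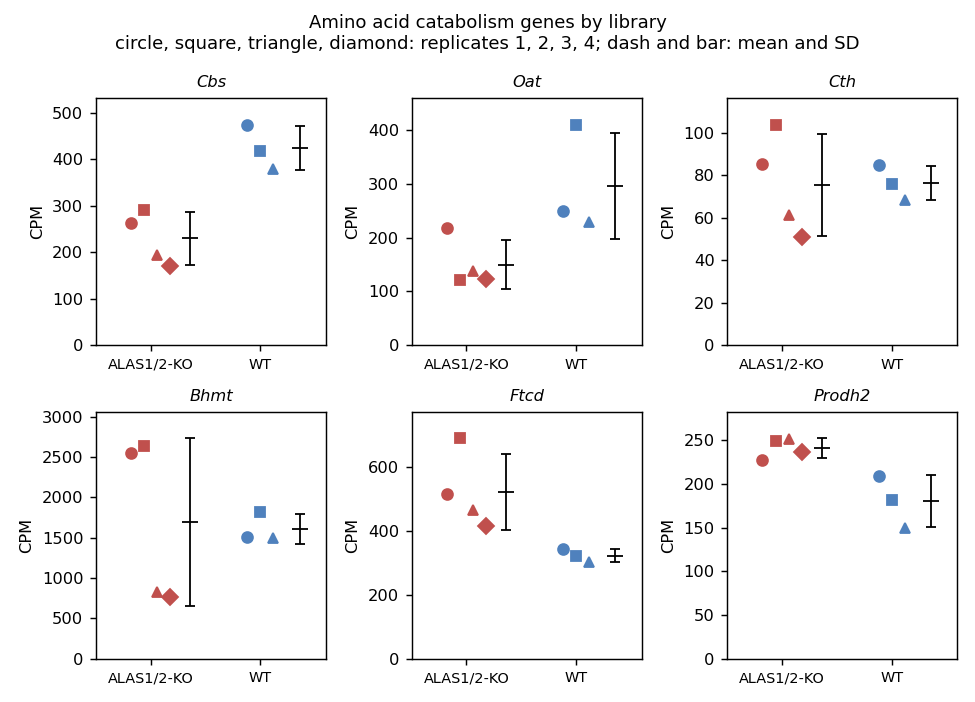
CPM of Cbs, Oat, Cth, Bhmt, Ftcd and Prodh2 in each ALAS1/2-KO library (left, n = 4) and each WT library (right, n = 3), with marker shapes for replicate numbers and a dash and bar for the mean and SD. Cbs and Oat have all ALAS1/2-KO libraries below all WT libraries, Ftcd and Prodh2 the reverse, and Bhmt splits the ALAS1/2-KO libraries around the WT values.

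Oat had the most negative fold change of the set. It encodes ornithine aminotransferase, which feeds ornithine carbon to glutamate and is known as a pericentral enzyme of the liver (ENSMUSG00000030934.9, chromosome 7, 132557478 to 132576398, minus strand). Its levels were 217, 121, 138 and 122 CPM in ALAS1/2-KO and 249.7, 411 and 229.9 CPM in WT. The groups did not overlap, although ALAS1/2-KO replicate 1 came close to WT replicate 3. The fold change was -0.98 ± 0.27 (SE), 1.97-fold lower, with an adjusted p of 0.0817 by limma, so Oat did not pass. Of the 7 fits that left out 1 library it passed in 1, without ALAS1/2-KO replicate 1 (0.0163), and the adjusted p ran up to 0.248. It also passed with quantile normalization (0.03) and with array weights (0.00913). The non-parenchymal score as a covariate, which largely sets ALAS1/2-KO replicate 1 apart, gave an adjusted p of 0.00831. Without ALAS1/2-KO replicates 1 and 2 together, chosen after the data were seen, the adjusted p was 0.0233. With CPM rescaled to listed reads the fold change of Oat was -0.64 (0.0966). Glul and Slc1a2, the glutamine synthetase and a glutamate transporter that share the pericentral layer with Oat, were picked out after their values were seen. Glul had 253, 212, 336 and 318 CPM in ALAS1/2-KO and 359.9, 554 and 342 CPM in WT (adjusted p = 0.165 by limma), and Slc1a2 had 34.0 to 64.9 CPM in ALAS1/2-KO and 75.7 to 123 CPM in WT (adjusted p = 0.101). In all 3 genes WT replicate 2 was the highest library. Of other zonated genes picked out in the same way, the pericentral Cyp2e1 had 1172 to 2501 CPM in ALAS1/2-KO and 2536 to 3580 CPM in WT, and the periportal Cyp2f2 had 1078 to 1670.3 CPM in ALAS1/2-KO and 380.1 to 465 CPM in WT, with no overlap in either and adjusted p-values of 0.205 for Cyp2e1 and 0.00338 for Cyp2f2 by limma. The 6 urea cycle enzymes, most of them held by periportal hepatocytes, were mixed, with 4 positive and 2 negative fold changes and 0 past the threshold by limma. The part of zonation in the Oat values was not tested.

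The proline oxidases Prodh2 and Prodh had fold changes of 0.43 and -0.12, and that of Prodh was 0.22 with CPM rescaled to listed reads. Prodh2, which oxidises hydroxyproline, had 227, 249, 251 and 237 CPM in ALAS1/2-KO and 209, 182 and 149.9 CPM in WT. Prodh, the proline dehydrogenase, had 111, 108, 115 and 117 CPM in ALAS1/2-KO and 146, 123 and 102 CPM in WT. Neither passed the test by limma, with adjusted p-values of 0.0929 for Prodh2 and 0.613 for Prodh. The ratio of Prodh2 to Prodh was 2.05, 2.30, 2.18 and 2.02 in ALAS1/2-KO and 1.43, 1.48 and 1.47 in WT. All ALAS1/2-KO ratios were above all WT ratios, a difference of 0.55 on the log2 scale with an exact two-sided permutation p of 0.0286, the smallest that 35 regroupings allow. Adjusted over the 5 pairs of related genes compared, this p was 0.143, and the pairs Gpt2 and Gpt, Got2 and Got1, Sdsl and Sds, and Bckdhb and Bckdha had adjusted exact p-values of 0.43 to 0.886. Aldh4a1, which finishes proline breakdown, had a fold change of 0.27, with 114 to 155 CPM in ALAS1/2-KO and 94.9 to 122 CPM in WT. None of these 4 ornithine and proline genes passed by limma or limma voom, and Oat and Prodh2 had an unadjusted p under 0.05.

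Lysine, tryptophan and branched-chain genes had 0 of 7 genes past the test by either limma or limma voom, and 0 reached an unadjusted p under 0.05. Aass, the entry enzyme of lysine breakdown, had 122 to 152 CPM in ALAS1/2-KO and 106 to 131 CPM in WT. The kynurenine pathway genes Kmo, Haao and Kynu had fold changes of -0.26, 0.17 and -0.09. Kynu spread over 59.9 to 114 CPM in ALAS1/2-KO, on both sides of the 84.7 to 93.9 CPM in WT. Bckdha and Bckdhb, which encode subunits of the branched-chain ketoacid dehydrogenase, had fold changes of 0.11 and -0.13 with intervals of -0.25 to 0.46 and -0.33 to 0.07. Ivd, which acts on leucine further down, had a fold change of 0.01 with an interval of -0.37 to 0.39. Kmo, Kynu and Bckdhb turned positive with CPM rescaled to listed reads, and the sign of Ivd changed in 8 of the 20 alternatives.

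Levels per kilobase of exon placed Ass1 at the top in both groups, at 458 CPM per kilobase in ALAS1/2-KO and 410.3 in WT. Hpd, Tat, Bhmt and Cps1 came next in ALAS1/2-KO, at 375, 333, 294 and 277 CPM per kilobase, with Tat and Bhmt ahead of Hpd and then Arg1 in WT, at 303, 279.6, 268 and 234. The libraries of neighbouring genes overlapped along these first ranks, so their order is not firm. Nags and Sdsl were the lowest in both groups, at 7.12 and 3.79 CPM per kilobase in ALAS1/2-KO and 9.22 and 3.48 in WT. Cbs stood at rank 31 of 42 in ALAS1/2-KO, against rank 19 in WT, and Oat at rank 19 in ALAS1/2-KO, against rank 11 in WT.

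Much of the variation was shared among the genes within a group. Both ALAS1/2-KO replicates 1 and 2 were above both replicates 3 and 4 in 26 of the 42 genes (61.9%), against 24.7% of all genes tested. Bhmt, Hal and Cth had the widest such splits. WT replicate 1 was the highest WT library in 36 of the 42 genes and WT replicate 3 the lowest in 36, whereas over all 12105 genes they were highest in 4053 and lowest in 4396. The median of the set stood 0.30, 0.35, 0.06 and -0.07 above the WT mean in the ALAS1/2-KO libraries on the log2 scale, and 0.23, 0.00 and -0.26 in the WT libraries. WT replicate 1 was thus above ALAS1/2-KO replicates 3 and 4 by this measure. Without ALAS1/2-KO replicates 1 and 2 together, 4 genes of the set were lower, Bhmt, Cbs, Nags and Oat, against 4.67% of all genes, and the median fold change was -0.01. This pair was left out after the data were seen, and for Bhmt it held the libraries above WT, which fixed the direction of that call. For Cbs the pair held the highest ALAS1/2-KO levels, so a lower estimate followed from the choice. Without WT replicate 1, 3 genes were higher, Ahcy, Asl and Slc7a2, against 1.2% of all genes, and 0 were lower. In each of these 3 genes WT replicate 1 was the highest WT library, so leaving it out had to raise their fold changes. ALAS1/2-KO replicates 1 and 2 were also the ALAS1/2-KO libraries with the lower Kupffer, endothelial and stellate marker sums. With the non-parenchymal score as a covariate, the median fold change was 0.04 in the set and 0.02 over all genes, and 3 genes of the set were lower, Cbs, Kmo and Oat, against 2.94% of all genes.

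**Figure D4:**
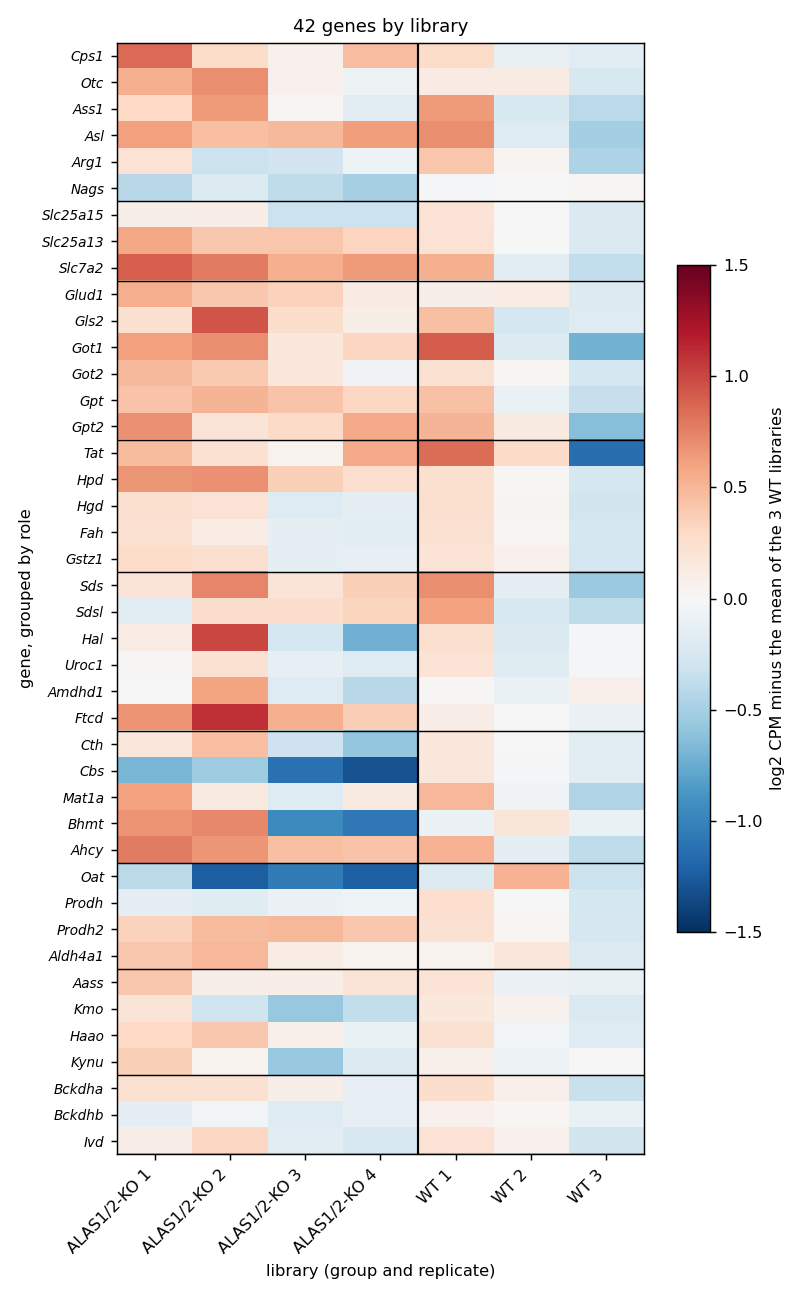
Log2 CPM of each of the 42 genes in each library minus the mean of the 3 WT libraries, ALAS1/2-KO libraries on the left and WT libraries on the right, with red above and blue below that mean. WT replicate 1 is mostly red and WT replicate 3 mostly blue, ALAS1/2-KO replicates 1 and 2 are redder than 3 and 4, and Cbs and Oat are blue across the ALAS1/2-KO libraries.

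Among 111 other amino acid genes tested, of a list of 123 covering transporters, regulators and further catabolic enzymes, 10 rose (9.01%) and 1 fell (0.901%), beside 2.91% and 2.19% of all genes. At an unadjusted p under 0.05 there were 28 (25.2%), close to the 23.7% of all genes. The list was drawn up with earlier results of these data known, so its shares are a description and not a test. Amino acid transporters gave 3 of the 10. Slc6a13, a carrier of GABA and taurine, had 297, 345, 345 and 342 CPM in ALAS1/2-KO and 194, 179 and 217 CPM in WT, with a fold change of 0.76 ± 0.11 (SE, adjusted p = 0.0101 by limma). Slc38a3, which moves glutamine and histidine, had 1557, 2080.4, 1399.5 and 1266 CPM in ALAS1/2-KO and 1014, 878 and 715 CPM in WT. Slc38a4, a carrier of small neutral amino acids, had 728 to 836 CPM in ALAS1/2-KO and 482 to 629.7 CPM in WT. For each of the 3, the lowest ALAS1/2-KO value exceeded the highest WT value.

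Enzymes next to the set rose in several pathways. Hsd17b10, a mitochondrial dehydrogenase of isoleucine breakdown, had 161, 136, 105 and 98.3 CPM in ALAS1/2-KO and 68.6, 60.6 and 48.1 CPM in WT, a fold change of 1.07 ± 0.20 (SE, adjusted p = 0.0263 by limma). Ppm1k, the phosphatase that activates the branched-chain ketoacid dehydrogenase, fell, with 22.8, 22.9, 17.1 and 16.2 CPM in ALAS1/2-KO and 33.7, 36.2 and 33.1 CPM in WT (fold change -0.81 ± 0.15 SE, adjusted p = 0.0234 by limma). In tryptophan breakdown Qprt, which leads to NAD, rose by 0.94 and Kyat1, a kynurenine aminotransferase, by 0.69 on the log2 scale. In lysine breakdown Hykk, a hydroxylysine kinase, and Dhtkd1, of the 2-oxoadipate dehydrogenase, each rose by 0.51. Slc25a22, a mitochondrial glutamate carrier, rose by 0.74 and Creb3l3, a liver transcription factor of the endoplasmic reticulum, by 0.69. Their groups did not overlap in any of these genes, as in 22.7% of all genes tested. These genes and the transporters above were picked by their adjusted p, so such separation adds no evidence to the calls.

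All 11 of these calls were lost without WT replicate 2, with adjusted p-values of 0.0713 to 0.204 by limma. Over the 7 fits that left out 1 library, Slc6a13 passed in 6, Slc25a22 in 4, and the other 9 in 1 to 3. The summed Kupffer, endothelial and stellate markers lay lower in ALAS1/2-KO replicate 1 than in any other library, and without replicates 1 and 2 together 9 of the 11 calls were kept. Among glycine and folate genes 0 of 15 passed by limma or limma voom, with 1 at an unadjusted p under 0.05; the most abundant, Gnmt and Sardh, had fold changes of 0.57 and 0.35 with adjusted p-values of 0.219 and 0.313. Among other methionine and cysteine genes 0 of 10 passed by either, with 2 at an unadjusted p under 0.05; the most abundant, Cdo1 and Bhmt2, had fold changes of -0.54 and 0.06 with adjusted p-values of 0.137 and 0.885. Tdo2, the heme-dependent dioxygenase that opens tryptophan breakdown, picked out after its values were seen, had 269 to 499.7 CPM in ALAS1/2-KO and 272 to 460.1 CPM in WT, a fold change of 0.15 with an interval of -0.42 to 0.73.

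**Figure D5:**
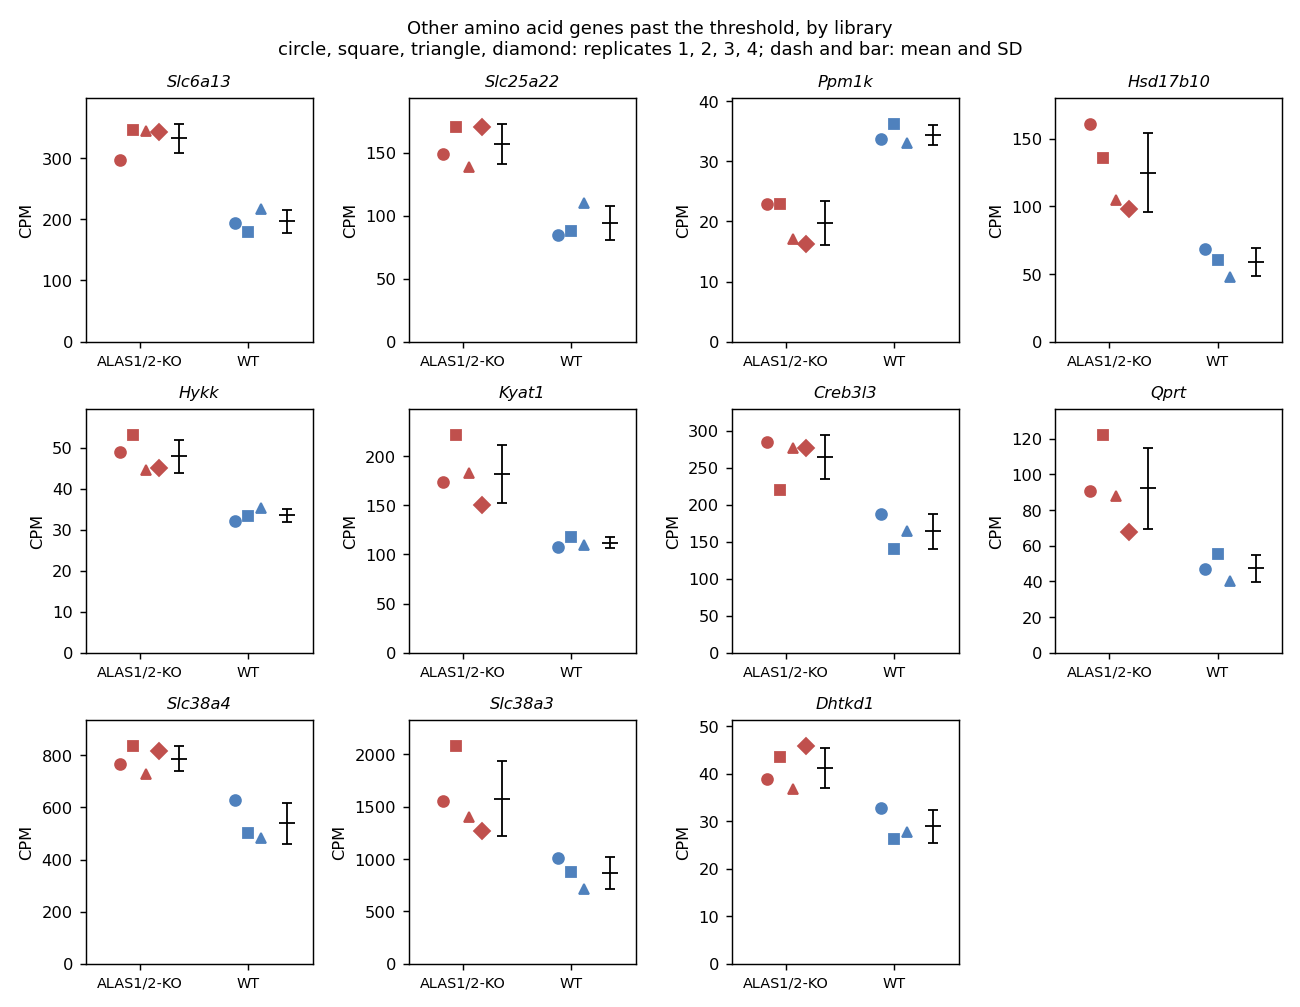
CPM of the 11 other amino acid genes with an adjusted p under 0.05 by limma, in each ALAS1/2-KO library (left, n = 4) and each WT library (right, n = 3), with marker shapes for replicate numbers and a dash and bar for the mean and SD. For 10 genes all ALAS1/2-KO libraries lie above all WT libraries, and for Ppm1k all lie below.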

How the data were processed

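The authors deposited log2 CPM values, to which a small prior had been added, of 12151 gene symbols and 7 libraries. Per the labels' protocols, libraries were made from Trizol RNA with a TruSeq RNA kit. Per the submitters' processing notes, cutadapt and HISAT2 were used with the build mm10; no source used here gives versions, the read counter, strand handling or the scaling. Taking the values off the log2 scale and subtracting a common floor of 0.0676 CPM gave whole multiples of a fixed step per library for 100% of values, within 0.01 reads, and so the reads per gene.

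The 12105 genes that reached 1 CPM in 3 or more libraries were tested on the deposited log2 values with limma 3.58.1 in R 4.3.3, with intensity trend and robust moderation, two-sided, with Benjamini-Hochberg adjustment. Pairs of related genes were compared by an exact permutation test of their log2 ratios. The procedure was also run on simulated data in which genes varied independently, unlike the shared variation described above. The outcome is not reported here. Alternatives were other pseudocounts, filters and scalings, limma without trend or with array weights, a marker score of non-parenchymal cells as covariate, limma voom on recovered reads, a replicate block, and leaving out libraries. All 42 genes are named, and of the other lists the genes past the threshold or, where there were none, the 2 most abundant. Members and lists were chosen with earlier results of these data known. Positions come from GENCODE M21. Reads of near-identical copies (such as Got2-ps1 and Bhmt-ps1) and of overlapping genes may be assigned wrongly: B3gnt8 overlaps 61.7% of the Bckdha exons and Gm21969 overlaps 32.5% of those of Aldh4a1, and neither was analysed here.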

Additional observations from a re-analysis of the deposited data

Results flagged for a closer look

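In 3 of 53 genes checked, 1 ALAS1/2-KO library lay far from the other 3 of its group, by the gap to its nearest neighbour over the range of the group on the log2 scale, a distance that chance gives in about 1 in 20 groups. A count of 3 in 53 is close to that rate, so the 3 genes are listed as a description. Sdsl, the serine dehydratase-like enzyme, had 4.41 CPM in ALAS1/2-KO replicate 1 and 5.96 to 6.30 CPM in the other ALAS1/2-KO libraries, a gap of 0.843 of the range. Slc6a13 had 297 CPM in ALAS1/2-KO replicate 1 and 342 to 345 CPM in the others, a gap of 0.933, and replicate 1 was still above every WT library. Creb3l3 had 219.6 CPM in ALAS1/2-KO replicate 2 and 276 to 285 CPM in the others, a gap of 0.885, again above every WT library.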

How the results depend on the processing

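Of 840 fits of single genes (42 genes under 20 alternatives), 720 kept their direction and their side of the threshold, 32 gained a call, 8 lost one (all Cbs) and 80 changed sign, in 22 genes. Genes of the set called higher numbered 15 with CPM rescaled to listed reads and 4 with array weights, against 0 as reported. Genes of the set called lower numbered 0 with rescaled CPM, without trend and with the replicate block, 3 each with quantile normalization, array weights and the non-parenchymal covariate, and 4 without ALAS1/2-KO replicates 1 and 2 together, against 1; that last alternative was chosen after the data were seen. Leaving out 1 library gave 0 to 3 higher and 0 to 2 lower. Over the whole table, higher calls numbered 2533 with rescaled CPM, 184 without trend, 1030 with array weights, 33 with the replicate block and 565 without replicates 1 and 2, against 352; lower calls numbered 398 with a pseudocount of 5 CPM, 171 without trend, 971 with array weights, 39 with the block and 565 without replicates 1 and 2, against 265. Leaving out 1 library gave 58 to 389 higher and 42 to 413 lower, the lowest both without WT replicate 2. Other amino acid genes higher numbered 40 with rescaled CPM, 3 without trend and 2 with the block, and 0 to 11 with 1 library left out, against 10. Those lower numbered 0 with rescaled CPM and the block, 2 when the mitochondrial and the 20 most abundant genes were left out of the scaling, 3 with quantile normalization and with the covariate, 6 with array weights, 5 without replicates 1 and 2, and 0 to 4 with 1 library left out, against 1. Fold changes that changed sign, on the log2 scale, were as follows. Leaving out ALAS1/2-KO replicates 1 and 2 together gave -0.00745 for Otc, -0.0667 for Ass1, -0.17 for Hgd, -0.16 for Fah, -0.13 for Gstz1, -0.49 for Hal, -0.0265 for Mat1a, -0.00931 for Haao, -0.018 for Bckdha and -0.19 for Ivd. With CPM rescaled to listed reads they were 0.22 for Arg1, 0.22 for Slc25a15, 0.32 for Uroc1, 0.33 for Amdhd1, 0.27 for Cth, 0.17 for Bhmt, 0.22 for Prodh, 0.0753 for Kmo, 0.24 for Kynu and 0.21 for Bckdhb. The scaling without the mitochondrial and the 20 most abundant genes gave -0.0359 for Hgd, -0.0581 for Fah, -0.0299 for Hal and -0.0573 for Ivd. Quantile normalization gave -0.0658 for Hgd, -0.15 for Fah, -0.0757 for Gstz1, -0.0687 for Hal and -0.025 for Ivd. Array weights gave -0.12 for Hgd, -0.12 for Fah, -0.0919 for Gstz1, -0.12 for Hal, -0.00279 for Bckdha and -0.14 for Ivd. The non-parenchymal covariate gave -0.17 for Hgd, -0.18 for Fah, -0.14 for Gstz1, -0.17 for Hal, -0.16 for Mat1a, -0.0213 for Bckdha and -0.13 for Ivd. The replicate block gave 0.0408 for Uroc1, 0.14 for Amdhd1, 0.10 for Cth and 0.14 for Bhmt. A pseudocount of 5 CPM gave 0.000292 for Amdhd1. Leaving out 1 library gave fold changes of -0.000511 to 0.52 for Ass1, -0.35 to 0.0901 for Arg1, -0.23 to 0.75 for Tat, -0.11 to 0.15 for Hgd, -0.13 to 0.12 for Fah, -0.0687 to 0.17 for Gstz1, -0.0141 to 0.47 for Sdsl, -0.29 to 0.28 for Hal, -0.11 to 0.0836 for Uroc1, -0.20 to 0.14 for Amdhd1, -0.24 to 0.10 for Cth, -0.0537 to 0.42 for Mat1a, -0.46 to 0.14 for Bhmt, -0.25 to 0.00811 for Prodh, -0.24 to 0.0683 for Kynu, -0.0623 to 0.23 for Bckdha and -0.13 to 0.11 for Ivd. The cause of these changes was not tested.

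Same-numbered libraries correlated by -0.03, 0.05 and 0.18 in their deviations from the group means, and differently numbered ones by -0.33 to 0.36. With so few pairs, these values cannot show whether libraries of equal number share an animal or a day. The replicate block, which takes ALAS1/2-KO replicate 4 out of the comparison since it has no WT partner, gave Cbs -0.78 with an adjusted p of 0.0867 by limma. With 4 and 3 libraries, a p of 0.0286 is the least an exact test can give. For depth, 1 read was worth 0.0293 to 0.0522 CPM, and the scarcest of the 42 genes, Sdsl, had at least 3.81 CPM in each library. The parts of counting noise and of spread between libraries in the intervals were not tested.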
